A study of Homo sapiens with 17 samples.

Results

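The FOX, SOX, PAX, LHX, TBX, GATA, POU and NKX families and the SIX-family genes are groups of DNA-binding transcription factors that are best known from embryonic development. Members were chosen by gene symbol alone, a family prefix followed by a member number or letter, with the cell cycle factor FOXM1 left out, and 134 of the 19141 genes in the count table met this rule. The FOX family gave 44 members, SOX 19, POU 15, NKX 14, TBX 13, PAX 9, LHX 8, and GATA and the SIX-family 6 each. A member was called silent when it held at most 2 read counts in every one of the 8 DMSO libraries, and 63 members met this limit, against 71 members expressed on DMSO. The highest DMSO count was 2 for 13 members just inside the limit and 3 for 5 members just outside it.

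The cells were YB5, a subline of the human colon cancer cell line SW48 that carries a silenced GFP reporter. They were treated with 250 nM toyocamycin, an adenosine analog made by Streptomyces, or with the solvent DMSO. Their polyadenylated RNA was sequenced after 2, 10, 24, 48 and 72 h as labelled (the results of the study give a later last time point). Each arm had 2 libraries after 2 h, a single library after 24 h and after 48 h, and 3 after 72 h. For 10 h the table held 1 DMSO library and 2 toyocamycin libraries. All cells in both arms were the same YB5 line. The study calls its repeats biological, but nothing in the labels says that the libraries came from separate cultures. The p-values thus measure the spread between these libraries, which may be technical. YB5 is 1 line, so other colon cancer cells may differ.

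The families bind DNA through different domains: the forkhead domain in FOX, the HMG box in SOX, the paired domain in PAX, a homeodomain beside LIM domains in LHX, the T-box in TBX, zinc fingers in GATA, the POU domain in POU and homeodomains in SIX-family and NKX proteins. Most members are switched on in a few embryonic tissues and kept off in others, where Polycomb complexes often hold their CpG-rich promoters silent. In the gut, FOXA1 and GATA6 act in endoderm and SOX9 marks crypt progenitor cells, whereas POU1F1 acts in the pituitary, PAX5 in B cells and SOX10 in the neural crest, none of which is a colon epithelial fate.

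Total counts ran from 8735465 to 22121364 per library. Levels are given as counts per 1000000 counts (CPM), with library sizes scaled by the trimmed mean of M-values. Of 12 colon epithelial markers, CDX1 and KRT20 held at most 1 count in any DMSO library, and the others were measured. The summed level of the 12 markers was 5840 to 6720 CPM in the DMSO libraries of 72 h and 580 to 611 CPM in the toyocamycin libraries of 72 h. KRT8 and KRT18, which went from 4290 and 1210 CPM to 267 and 34.9 CPM, made most of the sum on DMSO. Of the 10 markers tested at 72 h, 6 were lower and 3 higher (CDH17, LGR5 and CDX2). Replicate 2 of toyocamycin at 10 h stood apart, since it had the lowest total and yet held a count for 92.3% of all genes silent on DMSO, against 18.9% in replicate 1, so results at 10 h are given with and without it.

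Promoter sequences show how unlike the members are at the DNA level. RefSeq windows of 300 bases, from 250 before to 50 after the gene start, could be matched for 96 of the 134 members. The windows of 3 members that were silent on DMSO and read at 72 h, NKX1-1, POU1F1 and PAX5, and of FOXO1, an expressed member that rose strongly, are printed because they cover the range from CpG-rich to CpG-poor. They are on the minus strand of build GRCh38.p14 and are written 5′ to 3′ with every CpG in capitals. NKX1-1 lies at chr4:1406393-1406692, POU1F1 at chr3:87276535-87276834, PAX5 at chr9:37034219-37034518 and FOXO1 at chr13:40666592-40666891.
NKX1-1: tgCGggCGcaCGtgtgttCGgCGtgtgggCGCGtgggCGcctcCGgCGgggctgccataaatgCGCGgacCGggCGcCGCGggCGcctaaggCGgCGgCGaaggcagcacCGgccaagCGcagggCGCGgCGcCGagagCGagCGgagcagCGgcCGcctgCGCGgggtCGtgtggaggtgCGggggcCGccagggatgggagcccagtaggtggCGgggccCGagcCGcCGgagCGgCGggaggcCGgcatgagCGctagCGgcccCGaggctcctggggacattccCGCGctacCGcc
POU1F1: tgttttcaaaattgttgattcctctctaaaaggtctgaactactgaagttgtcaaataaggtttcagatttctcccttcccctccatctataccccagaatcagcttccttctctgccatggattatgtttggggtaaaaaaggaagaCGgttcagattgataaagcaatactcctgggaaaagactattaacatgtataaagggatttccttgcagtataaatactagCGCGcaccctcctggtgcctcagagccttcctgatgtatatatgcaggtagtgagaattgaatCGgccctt
PAX5: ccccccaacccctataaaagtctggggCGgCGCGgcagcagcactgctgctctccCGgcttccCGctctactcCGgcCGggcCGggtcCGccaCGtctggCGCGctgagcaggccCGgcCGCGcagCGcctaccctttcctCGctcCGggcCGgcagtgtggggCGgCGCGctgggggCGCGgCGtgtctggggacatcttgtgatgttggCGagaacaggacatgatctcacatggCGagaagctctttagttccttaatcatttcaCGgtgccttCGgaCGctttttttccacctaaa
FOXO1: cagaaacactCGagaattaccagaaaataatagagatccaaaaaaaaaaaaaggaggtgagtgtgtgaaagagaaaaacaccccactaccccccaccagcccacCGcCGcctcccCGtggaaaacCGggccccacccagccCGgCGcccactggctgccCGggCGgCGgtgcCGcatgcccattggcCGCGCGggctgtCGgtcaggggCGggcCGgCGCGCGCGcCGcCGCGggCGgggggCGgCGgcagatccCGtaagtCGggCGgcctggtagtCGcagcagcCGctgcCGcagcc

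The NKX1-1 window held 48 CpG dinucleotides, the FOXO1 window 33 and the PAX5 window 30, and the POU1F1 window held 4. The median was 14 CpG over all 27305 promoters, 23 over the 96 members, 30 over the 9 matched silent members that were detected at 72 h and 21 over the 37 that were not. The letters TATAAA on either strand were present in the POU1F1 and PAX5 windows, in 12.0% of all promoters and in 7.29% of the members' promoters. The GC box letters GGGCGG on either strand stood in 65.6% of the members' promoters and in 44.6% of all promoters, and the letters CCAAT in 37.5% and 35.7%. These matches are descriptions of the windows and were not tied to binding of any factor.

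On DMSO, a few members held most of the families' RNA. Per kilobase of exon, the mean over the 8 DMSO libraries was highest for SOX9 at 119 CPM per kb, followed by FOXQ1 at 73.3, SOX4 at 43.7, NKX2-5, a cardiac homeodomain factor, at 24.5, and FOXK1 at 21.2. The highest CPM of the remaining families on DMSO belonged to TBX3, GATA2, POU2F1, PAX9, LHX6 and SIX5. Of the 71 expressed members, 32 held more than 50 counts in every DMSO library. After 72 h on toyocamycin, SOX9 had a level of 472 CPM per kb, SOX4 of 366, SOX8 of 314, NKX2-5 of 196, FOXO1 of 170, TBX3 of 157 and FOXA1 of 134.

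At 2 h, the first comparison of toyocamycin with DMSO, most members that changed fell. In the quasi-likelihood test of edgeR, adjusted over all genes by the method of Benjamini and Hochberg, 14 of the 82 members that passed the filter on low counts were lower at an adjusted p under 0.1 and 2 were higher. Over all 14491 genes tested, 8.42% were lower and 0.518% were higher, and the median log2 fold change was −0.21 over the members and 0.02 over all genes. All 14 that fell were expressed on DMSO: 6 FOX members (FOXA1, FOXD2, FOXJ1, FOXJ2, FOXO3 and FOXQ1), 4 SOX members (SOX4, SOX9, SOX13 and SOX30), TBX3, PAX9, POU2F1 and GATA2. Replicate numbers 1 and 2 match batches 1 and 2 of the labels at 2 h, and both arms share them. With the replicate as a block, which tested 50 members, 20 were lower and 3 higher, against 18.7% and 8.72% of all genes. The count of 14 fell to 5 without DMSO replicate 1 and to 4 without toyocamycin replicate 2. It was 0 with libraries scaled on the mitochondrially encoded RNAs, where edgeR called 0 in either direction and 7 members expressed on DMSO were lower and 1 higher at an unadjusted p under 0.05.

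TBX3, a T-box repressor active in limb and mammary development, and FOXJ2 had the lowest adjusted p-values of the members at 2 h. TBX3 stood at 27.3 and 24.2 CPM in the DMSO libraries of 2 h and at 11.3 and 8.61 CPM in the toyocamycin libraries, a log2 fold change of −1.37 ± 0.19 (SE), with an edgeR adjusted p of 0.00025. FOXJ2 had 42.4 and 36.7 CPM on DMSO and 16.7 and 14.3 CPM on toyocamycin, a log2 fold change of −1.35 ± 0.20 with an edgeR adjusted p of 0.000574. The arms of neither gene overlapped. The other large falls were in members of low level: SOX30 went from 0.463 and 0.771 CPM to 0.166 and 0.108 CPM, and FOXJ1, a factor of motile cilia, from 1.09 and 0.617 CPM to 0.249 and 0.163 CPM, with edgeR adjusted p-values of 0.0546 and 0.0754. FOXD2 went from 13.5 and 5.5 CPM to 4.93 and 2.6 CPM, with an edgeR adjusted p of 0.0672.

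The 2 members that rose at 2 h were both low. POU4F3, a factor of inner ear hair cells, had 0.252 and 0.36 CPM on DMSO and 1.33 and 1.03 CPM on toyocamycin, a log2 fold change of 1.95 ± 0.49 with an edgeR adjusted p of 0.0239. SOX10 had 0 counts in both DMSO libraries and 5 and 3 counts in the toyocamycin libraries, with an edgeR adjusted p of 0.0552. With these counts at or near the floor of 3 counts no fold is given for SOX10, and it did not pass the filter of the fit with the block.

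At 72 h more members were higher than lower. Of 82 tested, 60 were higher, 14 lower and 8 not called, where 47.0% of all genes were higher and 41.9% lower. The 17 silent members in this count passed the filter through their toyocamycin libraries, so they had to be higher, and the fairer reading is over members that pass the filter on DMSO libraries alone. Of those 57 members, all expressed on DMSO, 35 (61.4%) were higher and 14 (24.6%) lower, against 37.8% and 49.4% of the 12281 genes chosen in the same way, an alternative added after the data were seen. The median log2 fold change of these 57 was 1.31 and that of the 12281 genes −0.35. The split also rested on the scaling. Of the 65 expressed members tested in the fit over all genes, 43 were higher and 14 lower, against 42.6% and 45.3% of expressed genes. The 65 include members, named below, that did not pass the filter on DMSO libraries alone and were higher under each scaling. The counts were 38 and 19 with library size alone and 29 and 20 with libraries scaled on the mitochondrially encoded RNAs. The shares of all genes called under either scaling are not given here. With library size alone the median of these 65 was 1.14 and that of all genes −0.42. With mitochondrial scaling the median of these 65 went from 1.74 to 0.61 and that of all genes from 0.18 to −0.89. The 14 rises not called with mitochondrial scaling were those of FOXD1, FOXJ1, FOXK1, FOXL1, FOXP1, GATA6, PAX8, POU2F3, POU5F1, SIX5, SOX7, SOX9, SOX30 and TBX19. In bulk RNA, a change in the mix of cells and a change of RNA per cell cannot be told apart.

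The families differed in their split at 72 h, in counts that were not tested against each other. Among expressed members, TBX had 7 higher and 0 lower of 8 tested, SOX 8 and 2 of 10, POU 5 and 2 of 7, PAX 2 and 1 of 3, LHX 2 and 1 of 4, GATA 1 and 0 of 2, and the single NKX and SIX-family members tested were higher. FOX, the family with the most members tested, had 16 higher and 8 lower of 29 and a median log2 fold change of 0.75. These counts include FOXE1, FOXE3, FOXH1, PAX2, POU3F2, POU4F3, SOX2 and TBX10. They did not pass the filter on DMSO libraries alone and were all higher, so they tilt the split of their families upward. With mitochondrial scaling the FOX family went to 11 higher and 12 lower with a median of −0.40, GATA turned to 0 higher and 1 lower with a median of −0.41, while SOX kept 5 higher against 2 lower and TBX 6 against 1.

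**Figure D1:**
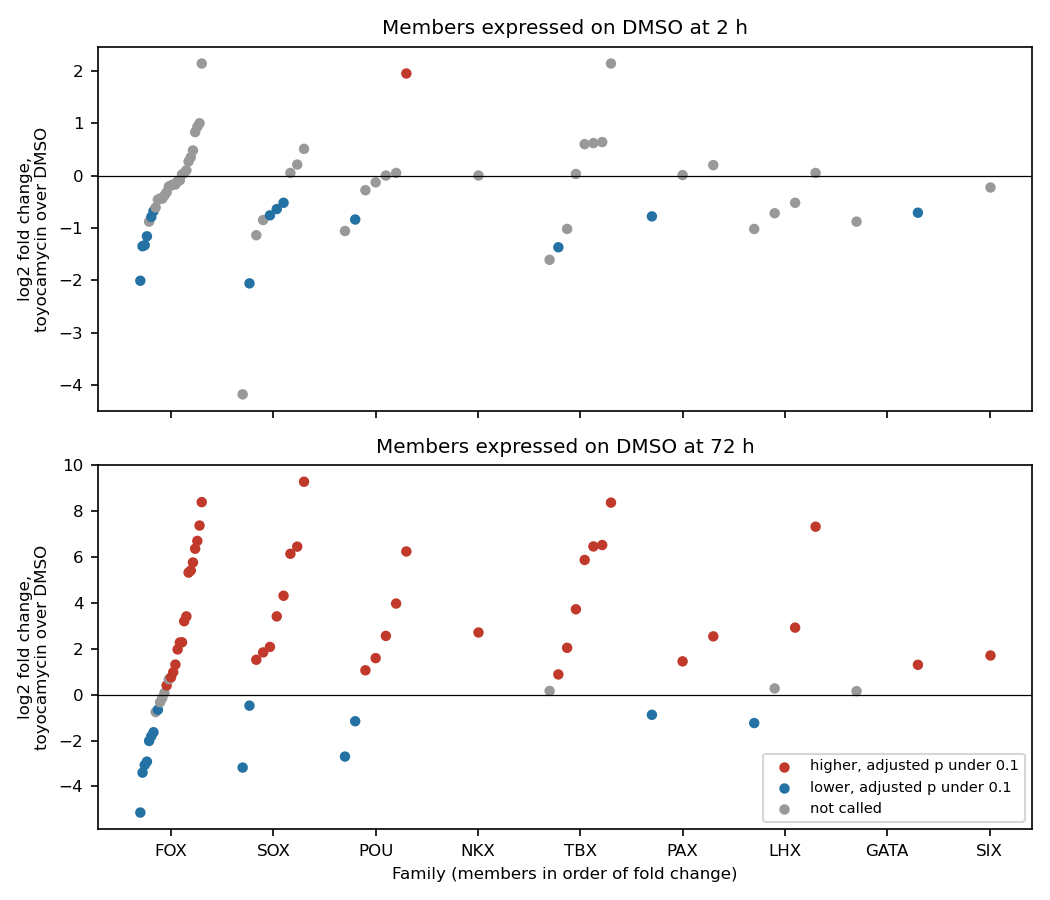
Each point is a member expressed on DMSO, with its log2 fold change of toyocamycin over DMSO on the y axis at 2 h (top) and 72 h (bottom), ordered within its family, red where higher, blue where lower and grey where not called at an adjusted p under 0.1. At 2 h the 14 members that fell lie below 0 and 1 red point above it. At 72 h red points spread up to the TBX, SOX and FOX members over 8 log2 units, with 8 blue points in FOX. The points include FOXE1, FOXE3, FOXH1, PAX2, POU3F2, POU4F3, SOX2 and TBX10, which did not pass the filter on DMSO libraries alone.

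SOX9 and SOX4, the SOX members with the highest levels on DMSO, fell at 2 h and rose later. SOX9 had 569, 539 and 483 CPM in the DMSO libraries of 72 h and 1540, 2080 and 1950 CPM in the toyocamycin libraries, so that the arms did not overlap. The log2 fold change was 1.84 ± 0.19, with an edgeR adjusted p of 2.56e-07, and the call was lost with mitochondrial scaling. At 2 h the same gene had been at 409 and 247 CPM on DMSO and 223 and 164 CPM on toyocamycin. SOX4, a member named outside the fixed rule like its relatives SOX8 and SOX12, had 192, 165 and 156 CPM on DMSO at 72 h and 1580, 1960 and 1800 CPM on toyocamycin, a log2 fold change of 3.41 ± 0.15.

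SOX8, which belongs with SOX9 and SOX10 to the SOXE group of neural crest and gonad factors, went from 86.8, 72.8 and 57.8 CPM to 1080, 1660 and 1470 CPM at 72 h, a log2 fold change of 4.31 ± 0.28. SOX15 had 1.59, 0.697 and 0.687 CPM on DMSO and 80.1, 85.9 and 85.8 CPM on toyocamycin, with an edgeR adjusted p of 7.92e-12. Its exons overlap those of MPDU1 on the opposite strand, which itself was at 44.9 CPM on DMSO and 54.0 CPM on toyocamycin, and the strand setting of the counting is not given in the sources used here. SOX2, a pluripotency factor named outside the rule, held 0 counts in the DMSO libraries of 72 h and 4.52, 5.47 and 2.52 CPM on toyocamycin, at least 30.0-fold higher. SOX13 and SOX12 were the SOX members that fell. SOX13 had 159, 144 and 137 CPM on DMSO and 12.8, 15.8 and 18.8 CPM on toyocamycin, a log2 fold change of −3.18 ± 0.18, whereas SOX12 fell by 0.48 with arms that overlapped and was not called under DESeq2's size factors.

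Of the FOX family, FOXA1, a pioneer factor of endoderm and mammary epithelium, had one of the largest rises at 72 h. It stood at 6.59, 6.18 and 4.76 CPM in the DMSO libraries and 466, 685 and 630 CPM in the toyocamycin libraries, a log2 fold change of 6.70 ± 0.22 with an edgeR adjusted p of 9.02e-13. The gene, at chr14:37589552-37596059 on the minus strand, shares exon sequence with TTC6 on the opposite strand, whose mean was 9.0 CPM on toyocamycin. FOXC2, a factor of mesenchyme and lymphatic vessels, had 0.297, 0.186 and 0.0429 CPM on DMSO and 20.1, 35.2 and 30.1 CPM on toyocamycin. FOXK1, the FOX member with the highest CPM on DMSO, moved little, from 304, 306 and 252 CPM to 344, 374 and 395 CPM. Its log2 fold change of 0.40 turned to −0.20 when library size alone was used and to −0.70 with mitochondrial scaling.

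Close relatives within the FOX family went opposite ways at 72 h. FOXO1 and FOXO3, effectors of insulin and stress signalling, rose by 5.76 ± 0.18 and 2.28 ± 0.12 on the log2 scale. FOXO1 had 20.1, 18.4 and 18.7 CPM on DMSO and 888, 1100 and 1040 CPM on toyocamycin. FOXO4 had 7.58, 6.55 and 7.17 CPM on DMSO and 2.46, 1.85 and 1.65 CPM on toyocamycin, and FOXO6 had 12.3, 13.9 and 9.7 CPM on DMSO and 2.65, 3.34 and 5.21 CPM on toyocamycin. Both falls passed the test, with edgeR adjusted p-values of 1.32e-06 and 7.07e-05, and in neither gene did the arms overlap.

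The FOXN, FOXJ and FOXP subgroups were split in the same manner. FOXN1, the factor of thymic epithelium and hair follicles, fell from 9.81, 9.29 and 8.28 CPM to 0.393, 0.371 and 0 CPM, and FOXN3 fell from 71.7, 67.9 and 82.1 CPM to 8.84, 9.36 and 10.4 CPM, whereas FOXN2 rose by 3.41 ± 0.26 on the log2 scale. FOXJ2 continued down to 2.46, 3.24 and 4.43 CPM, from 30.2, 26.4 and 31.1 CPM on DMSO, while FOXJ1 and FOXJ3 rose by 2.27 ± 0.49 and 1.97 ± 0.15, the former not called with mitochondrial scaling (1.21). FOXP4 fell from 107, 103 and 73.2 CPM to 19.6, 21.5 and 27 CPM, FOXP3 fell by 3.40 and FOXP1 rose by 1.31, which was 0.31 and not called with mitochondrial scaling. FOXP3 overlaps CCDC22 on the opposite strand, which fell by 4.97 on the log2 scale. FOXD4 rose by 5.32, but it has near-identical copies in the genome between which reads may be divided.

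**Figure D2:**
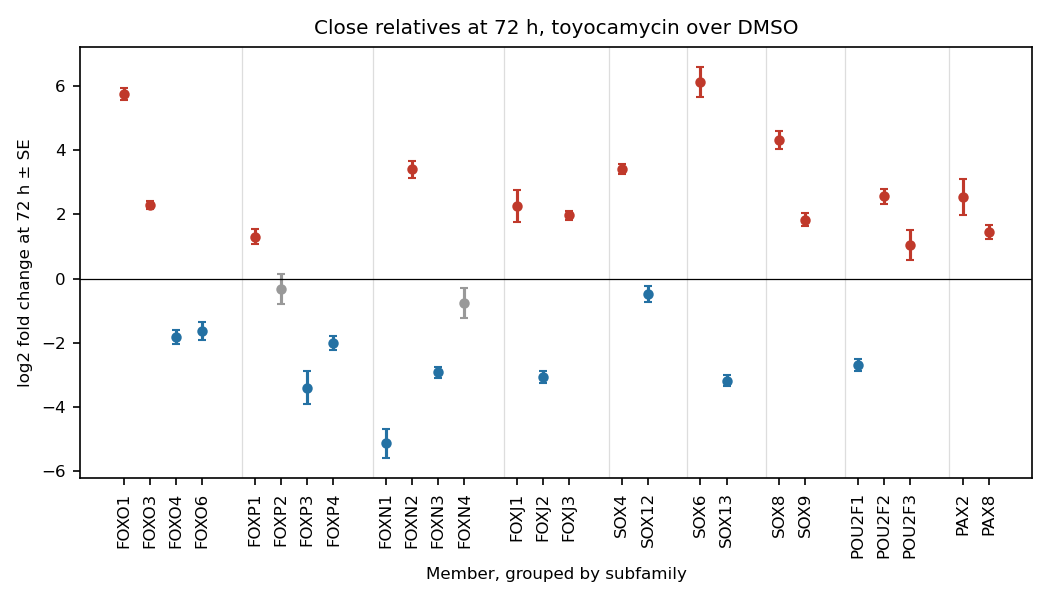
Log2 fold change at 72 h, toyocamycin over DMSO, with its standard error, for tested members of 9 subgroups chosen for their sequence kinship, red where higher, blue where lower and grey where not called. FOXO, FOXP, FOXN, FOXJ, SOX4 with SOX12, SOX6 with SOX13, and POU2F each hold points on both sides of 0, whereas SOX8 with SOX9 and PAX2 with PAX8 lie above 0.

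TBX3 and TBX2, neighbouring T-box repressors in sequence kinship, were both higher at 72 h. TBX3, at chr12:114670255-114684175 on the minus strand, had 18.6, 16.3 and 14.2 CPM on DMSO and 838, 962 and 1010 CPM on toyocamycin. The log2 fold change was 5.87 ± 0.17, with an edgeR adjusted p of 5.41e-13, the lowest among the members at this time. TBX2 held 2 counts summed over the 3 DMSO libraries and 398 over the 3 toyocamycin libraries, a ratio of 398 in CPM with a 95% counting interval of 110 to 3300. TBX4, a hindlimb factor, and TBX6, a factor of paraxial mesoderm, rose by 6.52 ± 0.60 and 2.04 ± 0.32, and TBX1 was at 12.9, 14.7 and 11.8 CPM on DMSO and 10.1, 15.5 and 17.4 CPM on toyocamycin, with arms that overlapped.

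Among POU members, the widely expressed octamer factor POU2F1 fell and its relative POU2F2, known from B cells, rose. POU2F1 had 32.5, 28.2 and 34.9 CPM on DMSO at 72 h and 5.5, 4.45 and 4.43 CPM on toyocamycin, a log2 fold change of −2.7 ± 0.18 with an edgeR adjusted p of 1.17e-09. It had already been lower at 2 h, at 15.9 and 16.1 CPM against 24.4 and 32.9 CPM. POU2F2 had 1.14, 1.11 and 1.33 CPM on DMSO and 6.39, 6.58 and 7.82 CPM on toyocamycin. POU4F3 reached 5.41, 4.82 and 4.95 CPM, from 0.0991, 0.0929 and 0 CPM on DMSO.

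The members of the smaller families with the highest DMSO levels moved less than FOXA1 or TBX3. NKX2-5 went from 63.3, 69.5 and 51.0 CPM to 381, 427 and 398 CPM, a log2 fold change of 2.75 ± 0.24. LHX6, a factor of forebrain interneurons, went from 8.47, 12.0 and 9.87 CPM to 71.5, 83.4 and 70.8 CPM. Its relative LHX3, a pituitary and motor neuron factor of low DMSO level, went from 0.396, 0.0464 and 0 CPM to 19.9, 26.1 and 22.2 CPM. The log2 fold change of LHX3 was 7.32, above those of FOXA1 and TBX3. SIX5 went from 7.58, 7.8 and 4.98 CPM to 15.1, 23.8 and 27.4 CPM, a log2 fold change of 1.74 that was 0.61 and not called with mitochondrial scaling. Each of these 4 was higher in all 3 toyocamycin libraries than in any DMSO library of 72 h. PAX9 was the PAX member that fell, from 12.6, 12.8 and 11.8 CPM to 6.88, 6.76 and 6.08 CPM, after a fall at 2 h as well. GATA2, a factor of blood stem cells, had 47.5, 39.3 and 32.4 CPM on DMSO and 37.3, 43.4 and 48.5 CPM on toyocamycin, and its log2 fold change of 0.15 turned to −0.45 with library size alone and to −0.97 with mitochondrial scaling.

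Of the 14 members that were lower at 2 h, 7 were higher at 72 h (FOXA1, FOXJ1, FOXO3, SOX4, SOX9, SOX30 and TBX3), 5 were lower again (FOXD2, FOXJ2, PAX9, POU2F1 and SOX13) and FOXQ1 and GATA2 were not called. The second fall of FOXD2 was small, at −0.66 on the log2 scale with an edgeR adjusted p of 0.0837, and it was not called with DESeq2's size factors, where it was −0.34. The difference between the effect at 72 h and that at 2 h was tested in the same edgeR fit. Over the 57 members that pass the filter on DMSO libraries alone, it was higher at 72 h in 36 and lower in 11, against 35.4% and 45.0% of the 12281 genes chosen in the same way. Over all 82 members tested, which include the 17 silent ones, it was higher in 49 and lower in 11, against 38.0% and 38.1% of all genes. FOXA1 differed by 7.49 on the log2 scale, TBX3 by 7.24 and SOX9 by 2.60, while FOXN1 differed by −4.96 and SOX13 by −2.54.

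**Figure D3:**
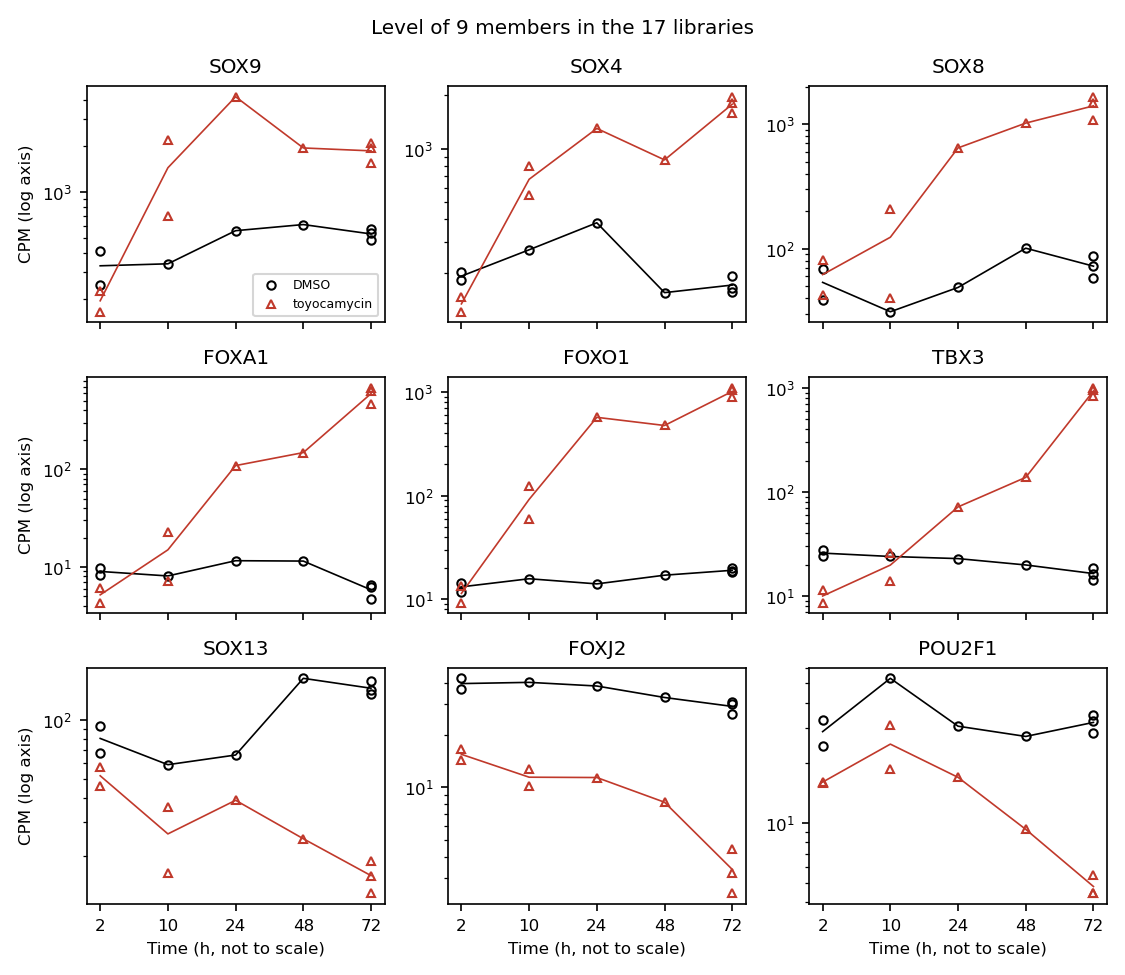
CPM on a log axis in each of the 17 libraries for 9 members, black circles for DMSO and red triangles for toyocamycin, with lines through the means and the times not to scale. SOX9, SOX4, FOXA1 and TBX3 start below DMSO at 2 h and end far above it, SOX8 and FOXO1 rise from 10 h on, and SOX13, FOXJ2 and POU2F1 lie below DMSO at each of the 5 times.

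Time in culture without the drug changed fewer members. Between 2 and 72 h on DMSO, 10 members were higher and 12 lower, against 10.2% and 11.4% of all genes. On toyocamycin, 64 of 82 members were higher and 12 lower at 72 h than at 2 h, against 46.5% and 40.8% of all genes, but the 17 silent members among the 64 passed the filter through their toyocamycin libraries. Over the 57 members that pass it on DMSO libraries alone, 39 were higher and 12 lower, against 37.7% and 48.1% of genes. It is a contrast that uses no DMSO library and in which time in culture and time on the drug cannot be told apart. The DMSO libraries of 2 and 72 h already differed for some named members: SOX13 and FOXN1 were higher on DMSO at 72 h, and FOXO4 and TBX3 lower.

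Silent members reached a detection limit of 10 counts at 72 h in a minority of cases. At 72 h, 11 of the 63 silent members held at least 10 counts in all 3 toyocamycin libraries, where 10.6% of all 4991 genes silent on DMSO (529 genes) did so. These 11 were POU1F1, POU3F1 and POU4F1 of POU, NKX1-1, NKX3-2 and NKX6-1 of NKX, SOX10 and SOX18 of SOX, PAX5, SIX6 and FOXR1. No silent member of LHX, TBX or GATA reached the limit, and 12 members, among them FOXF2, LHX2, PAX7, SOX5 and TBX5, had 0 counts in all 3 libraries. A count of 0 in a library allows up to 3 counts, so a low level was not detectable there at this depth. FOX, the family with the most silent members (15), had 1 detected, and NKX had 3 of 12.

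POU1F1, the pituitary factor that drives growth hormone and prolactin genes, had the highest level of the silent members. It held 328, 294 and 279 counts in the toyocamycin libraries of 72 h, 98 after 48 h, 66 after 24 h, 17 in replicate 1 of 10 h, 7 and 2 after 2 h, and at most 2 in any DMSO library. Every toyocamycin library of 72 h thus lay above every other library, and against the floor of 3 counts per library in the DMSO libraries of 72 h it was at least 201-fold higher. Low DMSO counts chose the silent members, so folds against DMSO given for them, here and below, had to be large. These folds and their intervals describe levels and are no test of a rise. The short window printed above for POU1F1 held the fewest CpG of the 4 shown.

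NKX1-1, a homeodomain factor of the developing nervous system at chr4:1402932-1406442, had 0 counts in all 8 DMSO libraries, in both toyocamycin libraries of 2 h, in both of 10 h and at 24 h, then 10 counts at 48 h and 140, 233 and 224 at 72 h. It was at least 132-fold higher at 72 h than on DMSO. SOX10 had 97, 123 and 110 counts at 72 h and 1 count summed over the DMSO libraries of that time, a ratio of 661 with a 95% counting interval of 118 to 26200. SOX10 overlaps exons of POLR2F on the opposite strand, and the strand setting of the counting is not given. POLR2F had a mean of 81.3 CPM in the DMSO libraries of 72 h, where SOX10 held that 1 count, and 247 CPM on toyocamycin. The part of POLR2F reads in the SOX10 counts was not tested. SOX18, a factor of endothelium, had 64, 68 and 110 counts and was at least 53.1-fold higher. Of the 4 endothelial markers, PECAM1 went from at most 1 count in any DMSO library to a mean of 2.09 CPM at 72 h, VWF stood at 0.343 CPM on DMSO and 0.425 CPM on toyocamycin with an edgeR adjusted p of 0.551, and CDH5 and KDR, at 0.0328 and 0.28 CPM on toyocamycin, were not tested.

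PAX5 had 68, 91 and 65 counts at 72 h, 37 at 48 h and at most 1 on DMSO, a ratio of 448 at 72 h with an interval of 79.7 to 17800. POU4F1, a factor of sensory neurons, had 34, 72 and 70 counts, with 55 at 48 h and 30 at 24 h. SIX6 had 20, 30 and 35 counts, FOXR1 12, 25 and 39, NKX3-2 11, 14 and 25, NKX6-1 11, 15 and 13 and POU3F1 13, 11 and 11, against 29 at 48 h. Some of these counts lie close to the limit, and 7 of the 11 also passed a limit of 20 counts. At 24 h POU1F1, POU4F1, SOX10 and SIX6 held at least 10 counts, whereas NKX1-1, NKX6-1 and FOXR1 were at 0.

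**Figure D4:**
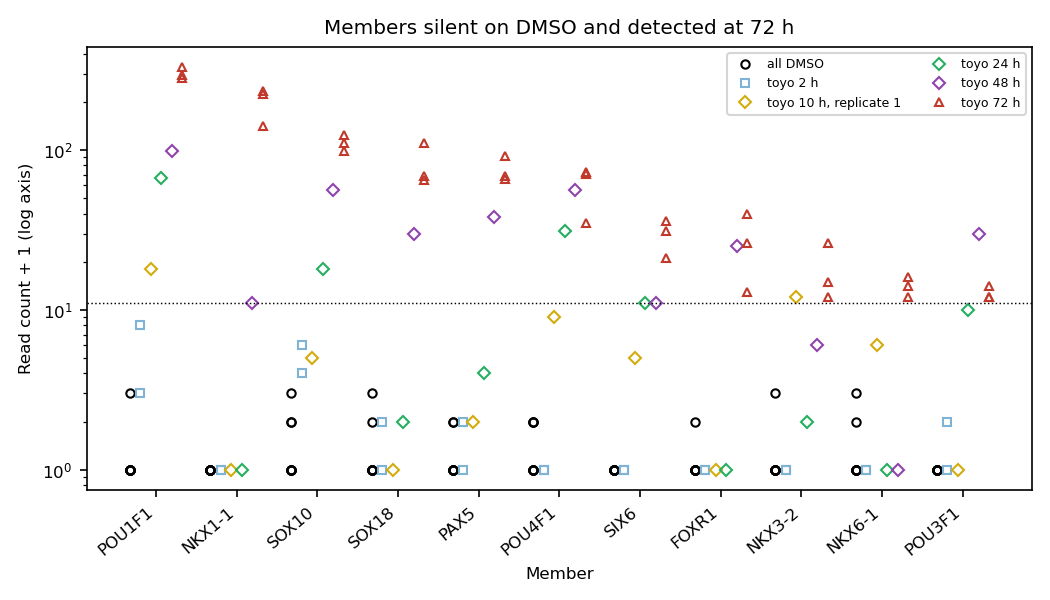
Read count plus 1 on a log axis for the 11 silent members detected at 72 h, with 1 symbol per library and the dotted line at the limit of 10 counts. All red triangles of 72 h lie above the line, all black DMSO circles lie at 2 counts or fewer, and replicate 2 of toyocamycin at 10 h is not drawn.

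The share of silent members with any count rose with time on toyocamycin, as did that of all silent genes. It was 4.76% to 28.6% in the DMSO libraries, 17.5% and 7.94% in the toyocamycin libraries of 2 h, 36.5% after 24 h, 49.2% after 48 h and 60.3%, 68.3% and 66.7% in the libraries of 72 h. Over all 4991 genes silent on DMSO it was 5.81% to 17.1% in the DMSO libraries and 15.1% and 9.42% in the toyocamycin libraries of 2 h. It was lower than over the members later, at 23.6% after 24 h, 44.9% after 48 h and 51.5%, 55.9% and 54.6% at 72 h. On DMSO the members' share was above it in replicate 1 of 2 h (28.6% against 17.1%). The members' share was below it at 10 h on DMSO (4.76% against 9.72%). The silent members together, relative to total counts, made 0.252 to 0.434 CPM in the DMSO libraries of 72 h and 65.1 to 74.4 in the toyocamycin libraries of 72 h. All silent genes together made 23.3 to 26.2 CPM and 2490 to 2610 CPM in the same libraries. The share with any count at 10 h was 23.8% in replicate 1 and 93.7% in replicate 2, against 18.9% and 92.3% of all silent genes. In replicate 2, 31 of the 63 members (49.2%) held 10 counts or more, against 41.6% of all silent genes.

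**Figure D5:**
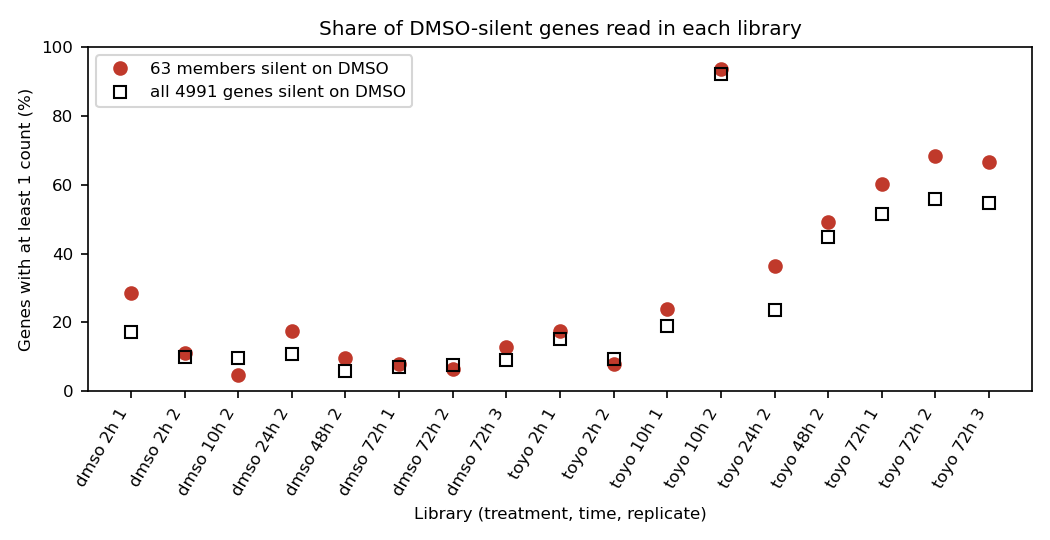
Percent of genes silent on DMSO that hold at least 1 count, by library, red circles for the 63 silent members and open squares for all 4991 silent genes. Both climb from 24 to 72 h on toyocamycin, with the members above all silent genes. Replicate 2 of 10 h stands at 93.7% and 92.3%, away from replicate 1.

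At 10 h, in a fit of all 17 libraries that tested 112 members, 24 were higher and 12 lower, where 20.4% of all genes were higher and 24.4% lower. Of the 112, 44 were silent on DMSO and passed the filter through toyocamycin libraries, and 7 of these were among the 24. The 68 expressed members gave 17 higher and 12 lower, against 21.5% and 29.0% of the 13917 expressed genes tested. Without replicate 2 of toyocamycin, 82 members were tested, 23 were higher and 14 lower, and 16 of the higher and 8 of the lower were the same genes. The calls moved more when replicate 1 was left out, which left only replicate 2 in the toyocamycin arm. SOX9 had 338 CPM on DMSO at 10 h and 2180 and 699 CPM on toyocamycin, SOX4 270 CPM against 797 and 549 CPM, and FOXO1 15.8 CPM against 125 and 58.9 CPM. All 3 were higher with and without replicate 2.

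At 24 and 48 h there was 1 library per arm, and no test was made. At 24 h FOXQ1, a forkhead factor expressed in colon cancer, reached 1430 CPM on toyocamycin and 248 CPM on DMSO, and it stood at 164, 271 and 255 CPM at 72 h, against 284, 295 and 204 CPM on DMSO, with arms that overlapped. SOX9 was at 4200 CPM at 24 h, above its 3 values of 72 h. TBX3 stood at 71.7 CPM at 24 h and 138 CPM at 48 h, and FOXA1 at 109 and 148 CPM, both below all of their values of 72 h. SOX15 and LHX3 were at 5.23 and 2.82 CPM at 24 h and at 27.3 and 16.8 CPM at 48 h.

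Partners of the families were counted from lists. Among 20 cofactors (EYA and DACH for SIX-family proteins, LDB and LMO for LHX, ZFPM for GATA, TLE corepressors for FOX and PAX and others), 15 were tested, 0 were higher and 3 lower at 2 h, and 8 were higher and 5 lower at 72 h. The shares over all genes were 0.518% higher and 8.42% lower at 2 h and 47.0% higher and 41.9% lower at 72 h. LDB1, the LIM domain cofactor, fell by 2.39 ± 0.15 on the log2 scale at 72 h and the corepressor TLE5 by 2.7 ± 0.14, while TLE4 rose by 3.05 ± 0.25. Of 17 measured FOXO target genes, 9 fell and 0 rose at 2 h, against 8.42% and 0.518% of all genes, and 12 were higher and 5 lower at 72 h, against 47.0% and 41.9%. CITED2 rose by 6.23 ± 0.20 and GADD45A by 4.94 ± 0.21, and INSR fell by 5.54 ± 0.17.

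All 30 Polycomb genes listed were tested. At 2 h 5 were lower, against 8.42% of all genes, and at 72 h 12 were higher and 17 lower, against 47.0% and 41.9%. The methyltransferase EZH2 went from 62.7 ± 9.8 CPM (SD, n = 3) to 19.1 ± 1.9 CPM, EED fell by 1.51 and PHF19 by 4.07 on the log2 scale, whereas BMI1 rose from 32.0 ± 4.6 to 1200 ± 111 CPM and JARID2 by 4.35 ± 0.16. Marker sums of other cell types also moved at 72 h. The 6 leukocyte markers went from 0.0929 to 0.396 CPM on DMSO to 16 to 19.3 CPM on toyocamycin, the 6 neuronal markers from 2.36 to 2.87 CPM to 21.5 to 29.1 CPM, the 7 fibroblast markers from 0.464 to 1.14 CPM to 2.56 to 21.8 CPM, and the 4 endothelial markers from 0.258 to 0.446 CPM to 2.06 to 3.91 CPM. KRT8, an epithelial keratin, fell by 3.97 ± 0.15, and CDX2, the intestinal homeodomain factor, rose by 0.61 ± 0.16. The part of these marker genes in the members' changes was not tested.

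At 72 h 52 of the 134 members were not tested, since they did not pass the filter on low counts, and 46 of these were silent on DMSO. The expressed members GATA1, GATA4, NKX1-2, POU5F2, SOX11 and SOX14 had 3 or 4 counts at most in any DMSO library and were the other 6. Of the silent members, 17 passed the filter, 6 of them without reaching 10 counts in all 3 libraries. Exon overlap with a protein-coding gene also touched FOXK2, FOXH1, FOXP1, LHX4, NKX2-1, NKX6-2, PAX6, PAX9, POU2F1, POU4F3, POU5F1, POU5F2, SOX7 and TBX1. For FOXP1, NKX2-1, POU4F3, POU5F2 and SOX7 the other gene lies on the same strand. TCF19, which overlaps POU5F1, fell by 3.44 on the log2 scale at 72 h while POU5F1 rose by 1.59 ± 0.35 (0.54 and not called with mitochondrial scaling), and WDR45B, which overlaps FOXK2, rose by 1.98 while FOXK2 was at 0.07 ± 0.14.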

How the data were processed

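Polyadenylated RNA of YB5 cells was sequenced in paired 150-base reads. Per the labels and the methods of the study, the authors aligned reads with STAR 2.7.5a to GRCh38 and deposited raw counts per gene, whose strand setting is not given in the sources used here. A deposited table of the authors' own comparisons (fold changes and p-values) was not used, and 1 count column that matched no sample was left out.

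Genes were named through GENCODE release 44. Tests used edgeR 4.0.16 (quasi-likelihood, in the form of edgeR 3) with filterByExpr, trimmed mean of M-values scaling and Benjamini-Hochberg adjustment over all genes, at an adjusted p under 0.1. The fit for 2 and 72 h held 14 libraries and the fit for 10 h all 17. DESeq2 1.42.0 was an alternative. Scripts were tested on simulated data. At 2 h the replicate number equals the batch in the labels, whose kind is not stated here, and pairs the libraries (correlation of deviations 0.342). At 72 h all 6 libraries are of batch 1.

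The members and lists were chosen with earlier results of these data known. Named in full were the most abundant member of each family, the 8 largest rises and 8 largest falls at 72 h with arms apart and an average log2 CPM of at least 1, the 5 largest of each called at 2 h, and the 10 highest silent members detected at 72 h. Other members that are named were chosen after their values were seen. Subgroups of close relatives follow common nomenclature. Intervals and the floor of 3 counts cover counting error only.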

Additional observations from a re-analysis of the deposited data

Results flagged for a closer look

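The effect of toyocamycin at 72 h differed from that at 2 h for many members, by edgeR's test of the difference itself at an adjusted p under 0.1. The difference was higher at 72 h in 36 and lower in 11 of the 57 members that pass the filter on DMSO libraries alone, against 35.4% and 45.0% of the genes chosen in that way. It was higher in 49 and lower in 11 of all 82 tested, which include 17 silent members that passed through their toyocamycin libraries, against 38.0% and 38.1% of all genes. Among the 21 named members that were called in this test and held more than 3 counts in some library of each of the 4 arms, the log2 effect at 72 h minus the log2 effect at 2 h was above 0 for LHX3 (8.34), FOXA1 (7.49), TBX3 (7.24), FOXC2 (6.37), SOX15 (5.94), FOXJ1 (4.28), SOX30 (3.58), LHX6 (2.87), NKX2-5 (2.73), SOX9 (2.60), SIX5 (1.96), GATA2 (0.86) and FOXK1 (0.51). It was below 0 for FOXN1 (−4.96), FOXN3 (−2.83), SOX13 (−2.54), FOXO4 (−1.91), POU2F1 (−1.86), FOXP4 (−1.83), FOXJ2 (−1.72) and FOXO6 (−1.20). A further 7 named members were called but were at or under 3 counts in every library of an arm, so their values are not given. No group held the 4 libraries needed to look for a library far from the rest.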

How the results depend on the processing

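Over all members tested, more were higher than lower at 72 h, and between 2 and 72 h on toyocamycin, under every alternative run. The FOX and GATA families turned at 72 h with mitochondrial scaling. The members tested include silent ones (17 of 82 in the main fit) that passed the filter through toyocamycin libraries and had to be higher. Only the filters on DMSO libraries alone and on at least 10 counts in every library leave them out. The other counts and medians of members at 72 h thus lean upward. Over the 57 members that pass on DMSO libraries alone, the median was 1.31 at 72 h, against −0.35 for genes chosen in the same way. With at least 10 counts in every library, 39 members were tested: 26 were higher and 9 lower at 72 h, 28 higher between 2 and 72 h on toyocamycin, the effect differed upward in 25 and downward in 7, and at 10 h 11 of 37 were higher. Median log2 fold changes of tested members at 72 h were 3.22 with all 17 libraries and batch as a term, 1.58 with at least 10 counts in every library, 2.97 with DESeq2's size factors, 2.98 with DESeq2's Wald test, 2.28 in the libraries of that time alone, 2.05 with library size alone, 3.15 without a filter, 1.58 with mitochondrial scaling and 2.55 to 2.96 when 1 library was left out. The medians of all genes at 72 h were 0.50 with DESeq2's size factors, −0.42 with library size alone and −0.89 with mitochondrial scaling. At 2 h the members' median was 0.00 with batch as a term and without a filter, and −0.40 with mitochondrial scaling. It was −0.33 to 0.00 when 1 library was left out.

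At 2 h the 14 lower calls became 5 at an adjusted p under 0.05, 4 in the libraries of 2 h alone, 6 with a minimum fold change of 1.2, 0 with mitochondrial scaling and 4 to 13 when 1 library was left out. The 2 higher calls became 1 at an adjusted p under 0.05, with the edgeR 4 form and in the libraries of 2 h alone, 0 with batch as a term, with at least 10 counts in every library, with mitochondrial scaling and on genes that pass the filter on DMSO libraries alone, and 0 to 1 when 1 library was left out. That last filter gave 35 higher at 72 h and 39 higher between 2 and 72 h on toyocamycin. At 10 h, 62 members were higher with batch as a term, 7 were higher and 19 lower with mitochondrial scaling, and leaving out 1 library gave 23 to 62 higher and 14 to 15 lower. Between 2 and 72 h on DMSO, 4 were higher with batch as a term, 6 with library size alone, 5 with a minimum fold change of 1.2, 4 higher and 0 lower with mitochondrial scaling, and 4 to 12 higher and 7 to 11 lower when 1 library was left out. Shares over all genes are not given here for most alternative runs, so these counts show how the calls moved. They do not show a change particular to the members. The cause of these shifts was not tested.

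With the replicate block at 2 h, 20 members were lower and 3 higher, against 18.7% and 8.72% of all genes. Of the lower calls, 14 were those made without the block. The numbers do not pair the libraries at 72 h (correlations −0.133, 0.0613 and −0.118). There the block gave 52 higher and 13 lower of 74 tested, against 45.1% and 43.9% of all genes. The median was 2.27 over the members and 0.02 over all genes. Of silent members, 7 were detected at 72 h with a limit of 1 CPM or of 20 counts. With a silence limit of 0 counts it was 3 of 31, and 11 to 12 were detected when 1 library was left out. The shares of all silent genes at these limits are not given here, so the counts do not show an excess of members. FOXK1 at 72 h turned to −0.20 with library size alone and −0.70 with mitochondrial scaling, and GATA2 to −0.45 and −0.97. Of 1130 recomputed values of named members, 1039 kept direction and side of the threshold, 83 lost the call, 4 gained it and 4 others, those of FOXK1 and GATA2, reversed. Members with few counts, and 24 and 48 h with 1 library per arm, are where depth and replication limit the values.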

Other observations

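The time of the highest mean level on toyocamycin, among 2, 24, 48 and 72 h, was spread over the expressed members. Of the 65 tested, 26 (40.0%) were highest at 72 h, among them FOXA1, FOXO1, SOX4, SOX8, SOX15, TBX2 and TBX3, where 31.1% of the 13376 expressed genes tested were highest then. At 2 h 13 members (20%) were highest, among them FOXJ2, FOXN1, FOXN3, FOXO4, FOXP4 and SOX13, against 38.3% of expressed genes. At 24 h 13 members were highest, including SOX9, FOXQ1, FOXC1, NKX2-5 and GATA2, and at 48 h 13, including FOXK1, FOXO3, LHX6 and FOXN2, against 18.3% and 12.3% of expressed genes. The 65 include FOXE1, FOXE3, FOXH1, PAX2, POU3F2, POU4F3, SOX2 and TBX10, which did not pass the filter on DMSO libraries alone. All of these were highest at 48 or 72 h, so they tilt the members' shares toward late times. The 13376 genes also hold genes of this kind. The times of 24 and 48 h rest on 1 library each, and no test was made.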
